A study of Mus musculus with 8 samples.

Results

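The genes of the mitochondrial ribosome were examined in the epididymal fat of male mice, with and without Cre recombinase acting on a floxed aromatase gene. They were taken as the protein-coding genes whose symbol is Mrpl or Mrps followed by a number. This gave 78 genes of the 34866 in the deposited table, 49 named for the large subunit (Mrpl) and 29 for the small subunit (Mrps). The rule used symbols only and no measured value, but it was set with earlier results of these data known. The 4 control libraries are labelled Aromatase flox/flox: both copies of the aromatase gene Cyp19a1 carry loxP sites and no Cre is present. The 4 other libraries are labelled aP2-Cre;Aromatase flox/flox and carry the same floxed gene together with Cre recombinase driven by the promoter of Fabp4, the adipocyte fatty-acid binding protein gene, a promoter that is also active in macrophages. These groups are called flox and aP2-Cre below. The floxed gene was thus common to all 8 libraries, and since mice with only the Cre transgene were not analysed here, effects of Cre itself and of the lost gene cannot be told apart. Age and diet are not given in the labels, and p-values measure the spread between these libraries, which the labels list as separate samples without naming the animals. The series' title states an interest in how adipose aromatase acts on bone and phosphorus in male mice.

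Mitochondria hold their own ribosome, which translates the few proteins encoded by mitochondrial DNA, all of them membrane subunits of the respiratory chain and ATP synthase. Its RNAs come from mitochondrial DNA, but every one of its proteins is encoded in the nucleus, made in the cytosol and imported. The large subunit forms the peptide bond and the exit tunnel, and the small subunit binds the mRNA and decodes it. Some members have a counterpart in the bacterial ribosome and others are found only in mitochondria. Every cell with mitochondria uses these genes, so in whole tissue their RNA comes from adipocytes, macrophages, endothelial and stromal cells together, and fewer cells of a type and less RNA per cell cannot be told apart.

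Start-site regions are shown for 6 members, so that the named members can be seen with the elements that factors of mitochondrial biogenesis are known to bind. Of the 78 members, 69 had a window of 300 bases in the RefSeq table of GRCm38.p6, from 250 bases before to 50 after a transcript start, and some had more than 1, giving 75 windows. The members without an entry were Mrpl4, Mrpl13, Mrpl15, Mrpl19, Mrpl38, Mrpl54, Mrps28, Mrps34 and Mrps35. The first 4 windows belong to members with the smallest p-values below, and Mrpl30 and Mrps26 were picked from the 4 most counted members of each subunit. Windows run 5′ to 3′ on the gene's strand. Capitals mark a match, on either strand, to the element of the factor NRF1, to CCGGAAGT (an ETS element, as bound by GABPA) or to AAGATGGCG (as bound by YY1). The windows lie at chr13:118387203-118387502 (minus strand) for Mrps30, chr16:18876588-18876887 (minus strand) for Mrpl40, chr6:71823735-71824034 (minus strand) for Mrpl35, chr6:125191950-125192249 (plus strand) for Mrpl51, chr1:37890227-37890526 (plus strand) for Mrpl30 and chr2:130563507-130563806 (plus strand) for Mrps26. The RefSeq start is that of the GENCODE gene for Mrps30 and Mrpl30, and lies inside the GENCODE gene for Mrpl35, Mrpl40, Mrpl51 and Mrps26.
Mrps30: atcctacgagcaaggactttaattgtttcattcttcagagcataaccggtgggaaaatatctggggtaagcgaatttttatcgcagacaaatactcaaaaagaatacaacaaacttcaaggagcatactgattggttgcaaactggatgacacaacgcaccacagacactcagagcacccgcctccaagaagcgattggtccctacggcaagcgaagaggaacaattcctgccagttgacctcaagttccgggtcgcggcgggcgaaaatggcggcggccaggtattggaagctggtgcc
Mrpl40: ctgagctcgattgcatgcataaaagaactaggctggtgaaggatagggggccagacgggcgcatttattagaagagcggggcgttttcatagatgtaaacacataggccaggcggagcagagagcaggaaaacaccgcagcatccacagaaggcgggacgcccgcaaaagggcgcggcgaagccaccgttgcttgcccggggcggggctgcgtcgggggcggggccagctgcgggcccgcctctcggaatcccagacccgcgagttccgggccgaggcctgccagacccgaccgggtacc
Mrpl35: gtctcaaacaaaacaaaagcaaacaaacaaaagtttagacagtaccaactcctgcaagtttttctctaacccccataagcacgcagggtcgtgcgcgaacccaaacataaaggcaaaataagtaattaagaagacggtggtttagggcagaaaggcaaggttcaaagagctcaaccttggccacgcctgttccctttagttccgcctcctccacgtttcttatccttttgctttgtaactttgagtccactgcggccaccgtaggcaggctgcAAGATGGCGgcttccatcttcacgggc
Mrpl51: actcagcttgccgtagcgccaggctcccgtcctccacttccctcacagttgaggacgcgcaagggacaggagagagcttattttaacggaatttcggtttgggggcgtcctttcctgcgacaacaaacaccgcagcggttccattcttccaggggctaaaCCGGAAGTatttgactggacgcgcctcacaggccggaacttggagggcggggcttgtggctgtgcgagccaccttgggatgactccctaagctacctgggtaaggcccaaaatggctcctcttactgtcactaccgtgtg
Mrpl30: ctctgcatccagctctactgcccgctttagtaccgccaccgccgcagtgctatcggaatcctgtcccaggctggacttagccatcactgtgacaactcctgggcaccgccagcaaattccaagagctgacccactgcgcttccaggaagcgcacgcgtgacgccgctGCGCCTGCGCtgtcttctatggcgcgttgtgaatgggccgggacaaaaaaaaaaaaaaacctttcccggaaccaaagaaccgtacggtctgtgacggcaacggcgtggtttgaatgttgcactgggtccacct
Mrps26: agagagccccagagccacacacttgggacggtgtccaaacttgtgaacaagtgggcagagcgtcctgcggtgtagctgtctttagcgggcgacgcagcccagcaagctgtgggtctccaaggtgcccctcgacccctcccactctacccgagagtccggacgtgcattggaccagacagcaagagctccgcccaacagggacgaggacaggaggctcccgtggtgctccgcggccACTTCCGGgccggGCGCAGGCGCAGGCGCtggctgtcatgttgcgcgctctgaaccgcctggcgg

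These windows differed in which element they held. Mrps30 and Mrpl40 held none of the 3, Mrpl35 held the YY1 letters just after its start, Mrpl51 the ETS letters, Mrpl30 the NRF1 letters, and Mrps26 the ETS letters with a pair of overlapping NRF1 matches. The windows of the other most counted members, Mrpl20, Mrpl24, Mrps6, Mrps14 and Mrps15, held none of the 3. The windows shown are therefore not a fair sample of the members. Over all 75 windows, the NRF1 letters were found in 13 or 17.3%, against 4.60% of all 32851 windows in the table and 6.38% of the 21262 windows of protein-coding genes. The ETS letters were found in 16% of the members' windows, 3.89% of all windows and 5.15% of protein-coding windows. For the YY1 letters these shares were 10.7%, 1.40% and 1.83%. At least 1 of the 3 was present in 31 of the 75 windows, or 41.3%, against 9.24% of all windows and 12.5% of protein-coding ones. No member window had 2 different elements overlapping. The TATAAA box went the other way, at 6.67% of members' windows against 13.6% of all and 12.6% of protein-coding ones. The letters GGGGCGGGG, as bound by SP1 and not capitalised above, were in 20% of members' windows, 11.4% of all and 15.4% of protein-coding windows. Members' windows were also richer in G and C, with a median content of 58.7% against 52.7% in all and 56.3% in protein-coding windows, which bears on how often GC-rich letters occur by composition. The differences in these shares were not tested, and a match of letters shows no binding.

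Libraries held 1538427 to 3045488 estimated counts in the flox group and 2237345 to 3053565 in the aP2-Cre group. Genes above 0 numbered 17176 to 17937 in flox and 17968 to 18247 in aP2-Cre libraries, without overlap. The part of this difference in the members' values was not tested. Values are given as CPM, the usual depth-scaled count, with library totals adjusted by trimmed mean of M values (TMM), and they are not divided by gene length because the libraries read the 3′ end of transcripts. Cyp19a1, the targeted gene, had 1 to 5.02 estimated counts per flox library and 0 to 4 per aP2-Cre library, so its loss could not be checked at this depth. Adipocyte markers were abundant in every library, with a summed 72687 to 93859 CPM over 18 genes in the flox and 62555 to 88776 CPM in the aP2-Cre group; 15 of the 18 were lower, with a median log2 fold change of -0.143, and 0 had an edgeR adjusted p under 0.05 (1 at an unadjusted p under 0.05). The 16 macrophage markers summed to 1027 to 1184 CPM in the flox and 1481 to 1888 CPM in the aP2-Cre group, with none at 0 in all libraries; 14 of the 15 tested were higher and 2, Cd68 and Lyz2, had an edgeR adjusted p under 0.05. Over all genes tested, 0.168% had an edgeR adjusted p under 0.05 and 6.39% an edgeR unadjusted p under 0.05. Of 12 epididymis and male tract markers, 8 were at 0 in all libraries and the sum stayed at or below 8.45 CPM. Mitochondrially encoded RNA took 10.7 to 12.4% of flox and 8.70 to 10.1% of aP2-Cre counts.

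Every member was measured. All 78 passed the low-count filter, and a member had 8 to 409 counts per library with a median of 97. Mrps27, whose product binds mitochondrial RNA, had the fewest, with 8 counts in flox replicate 4. Mean levels over the 8 libraries ran from 8.68 CPM for Mrps27 to 108 CPM for Mrpl30, with a median of 40.1 CPM. Together the members took 0.344 to 0.361% of the counts of a flox library and 0.342 to 0.350% of those of an aP2-Cre library. They are spread over 17 chromosomes, with the most, 11 genes, on chromosome 11.

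No mitochondrial ribosomal protein gene differed between the genotypes past the threshold. The comparison used edgeR's quasi-likelihood test on all 12480 genes that passed the filter, with Benjamini-Hochberg adjustment over all of them. Of the 78 members 0 had an adjusted p under 0.05, where 0.168% of all genes did (0.12% as higher and 0.0481% as lower), and the smallest adjusted p among them was 0.473, for Mrps30. At an unadjusted p under 0.05 there were 5 members, or 6.41%, all lower in the aP2-Cre libraries. Over all genes 6.39% reached that p in either direction with 3.52% as higher and 2.87% as lower, so the members' share in either direction was near the background. DESeq2 and limma-voom with quality weights also gave 0 members past an adjusted p of 0.05, with 4 and 5 at an unadjusted p under 0.05. In 3 members, all lower, no aP2-Cre library overlapped a flox library, against 4.2% of all genes in either direction, 2.47% as higher and 1.73% as lower.

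Differences of the members leaned to one side. The median log2 fold change (aP2-Cre over flox) was -0.106, a change of -7.05%, against -0.001 over all genes tested. Of the 78 members 57, or 73.1%, had a value below 0, against 50.3% of all genes. Their values ran from -0.47 for Mrps30 to 0.33 for Mrpl19, and the interquartile range was -0.214 to 0.012, against -0.161 to 0.159 over all genes. The standard error of a single member had a median of 0.158, against 0.211 over all genes. The interval shares that follow also reflect this smaller error. For 58 members the 95% interval of the log2 fold change lay within 1.5-fold either way, against 43.9% of all genes, and for 77 it lay within 2-fold, against 76.9% of all genes. It lay within 0.322 of 0 on the log2 scale for 5 members, or 6.41%, near the 6.12% of all genes. The exception at 2-fold was Mrps22, at -1.02 to 0.26.

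The lean depended in part on scaling. On library totals without TMM factors, an alternative added after seeing the data, the median of all genes moved to 0.068 and that of the members to -0.037. Then 47 of 78 members were below 0, while the share of all genes below 0 was 38.3%. The distance between both medians was -0.104 under either scaling. A change of library factors shifts all genes nearly alike, so this distance could hardly differ and does not test the lean. With each library left out in turn there were 54 to 60 members below 0 and medians from -0.131 to -0.085. Over the 17 settings run, 43 members were lower in each and 7 were higher in each.

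**Figure D1:**
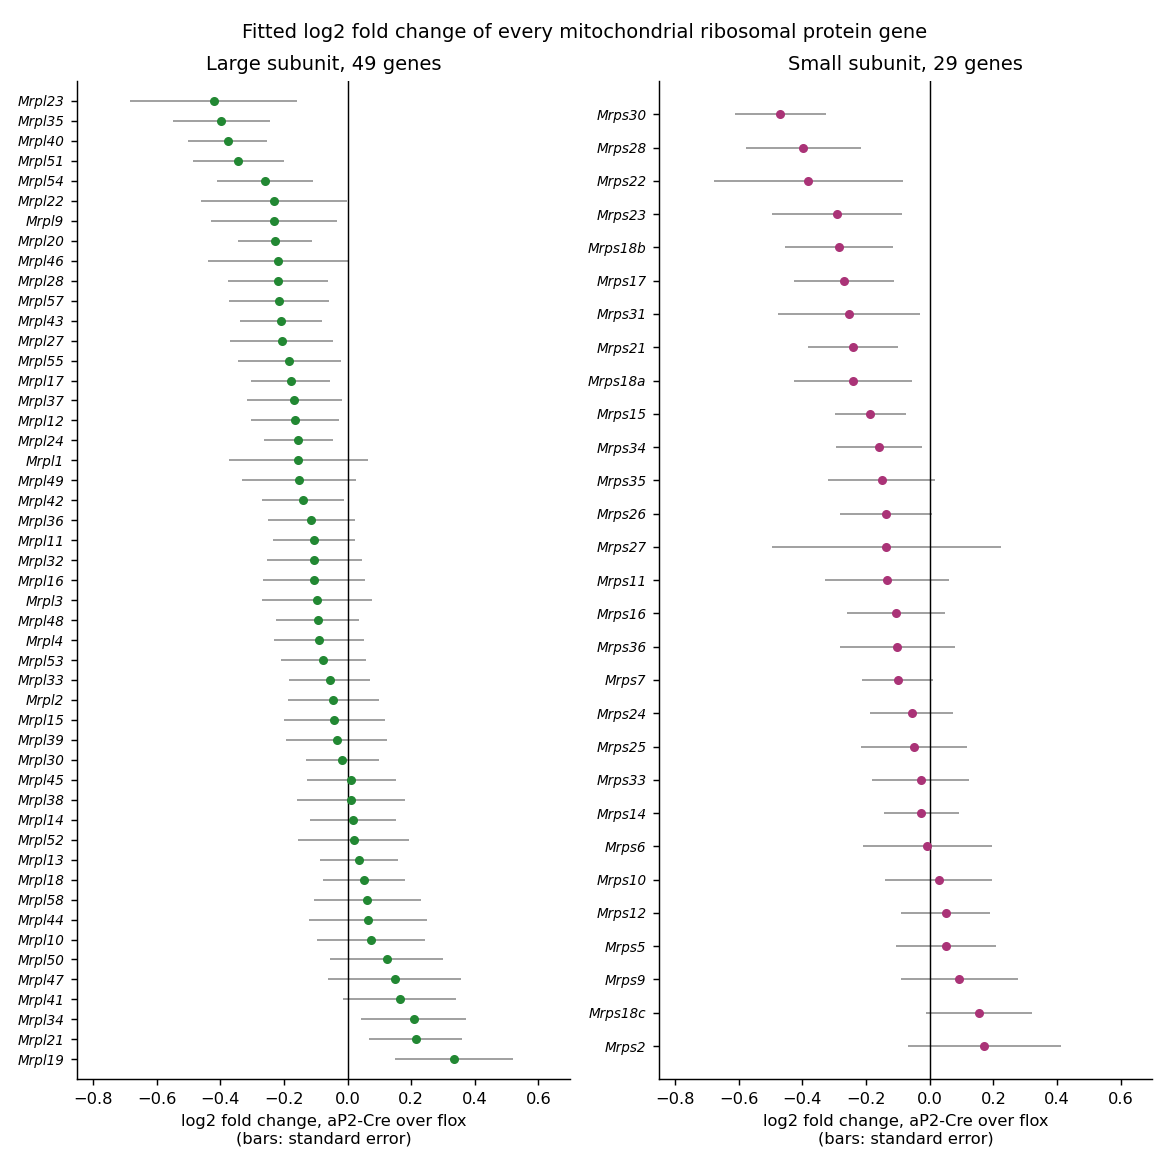
Fitted log2 fold change (aP2-Cre over flox, x axis) with its standard error for each of the 49 large subunit and 29 small subunit genes (y axis). The points run from -0.47 for Mrps30 to 0.33 for Mrpl19, and 57 of the 78 points are below 0.

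**Figure D2:**
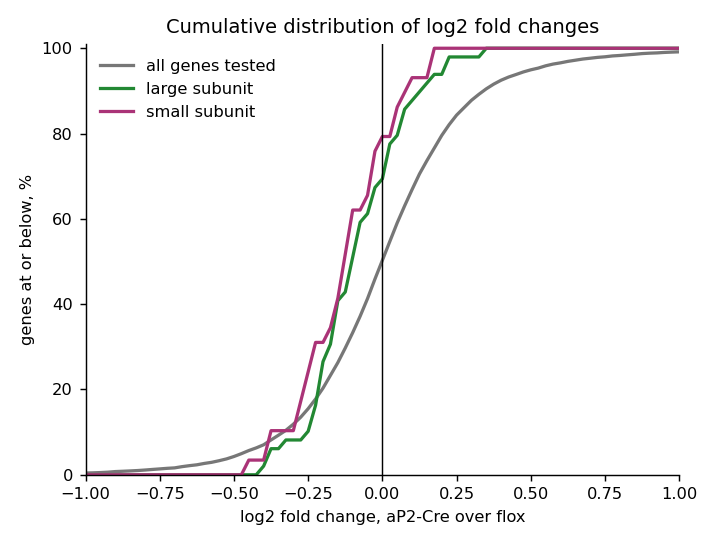
Share of genes (y axis, %) at or below each log2 fold change (x axis) for the large subunit, the small subunit and all 12480 genes tested. At 0 the curves stand at 69.4% for the large subunit, 79.3% for the small subunit and 50.3% for all genes.

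Among large subunit genes, 34 of 49 were lower in the aP2-Cre libraries, and the median log2 fold change was -0.105. At an unadjusted p under 0.05, 3 of them (6.12%) were lower and 0 higher, near the 6.39% of all genes in either direction (2.87% as lower). In 2 (4.08%), both lower, the groups had no overlap, near the 4.2% of all genes in either direction (1.73% as lower). Mrpl40 (ENSMUSG00000022706, chromosome 16, 18872018 to 18876862), a large subunit protein without a bacterial counterpart, was at 51.7, 54.4, 52.5 and 52.6 CPM in flox replicates 1 to 4 and 41.7, 38.8, 38.0 and 43.9 CPM in aP2-Cre replicates 1 to 4. Every flox library was above every aP2-Cre library, and the 4 flox libraries lay within a narrow band. The means were 52.8 ± 1.14 CPM in the flox and 40.6 ± 2.72 CPM in the aP2-Cre libraries (SD, n = 4 each), with a log2 fold change of -0.38, SE 0.12, edgeR adjusted p = 0.52 and an unadjusted p of 0.00884. Mrpl40 shares words of 31 bases with 439 genes, the most, 37, with Smco1. The gene Gm28539 overlaps it by 4845 bases on the opposite strand, and whether reads were counted by strand is not given here.

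Mrpl35 (ENSMUSG00000052962, chromosome 6, 71812997 to 71826969), which has a bacterial counterpart, was at 38.5, 39.0, 41.4 and 33.6 CPM in flox replicates 1 to 4 and 34.5, 26.4, 27.3 and 28.3 CPM in aP2-Cre replicates 1 to 4. Its aP2-Cre replicate 1 lay above flox replicate 4, and the other 3 aP2-Cre libraries lay below all flox libraries. The means were 38.1 ± 3.27 CPM in the flox and 29.1 ± 3.67 CPM in the aP2-Cre libraries (SD, n = 4 each), with a log2 fold change of -0.40, SE 0.15, edgeR adjusted p = 0.689. For Mrpl51 (ENSMUSG00000030335, chromosome 6, 125191801 to 125196269), one of the 4 most counted large subunit genes, the values were 111, 115, 105 and 117 CPM in flox replicates 1 to 4 and 95.3, 68.3, 77.9 and 111 CPM in aP2-Cre replicates 1 to 4. The flox libraries were close together, while the aP2-Cre libraries spread from well below them to a level inside their range. Its mean was 112 ± 5.28 CPM in the flox and 88.0 ± 18.7 CPM in the aP2-Cre libraries (SD, n = 4 each), with a log2 fold change of -0.34, SE 0.14, edgeR adjusted p = 0.71. Mrpl35 and Mrpl51 had edgeR unadjusted p-values of 0.0213 and 0.0301. Mrpl51 shares 227 words of 31 bases with the pseudogene Gm14017, and Mrpl35 shares 73 with Cyp20a1, in each case the most for any gene. The division of their reads is therefore uncertain.

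Mrpl24 (ENSMUSG00000019710, chromosome 3, 87919506 to 87923672), with a bacterial counterpart, was the other large subunit gene without overlap, at 82.5, 89.7, 81.9 and 78.6 CPM in flox replicates 1 to 4 and 77.1, 74.7, 75.3 and 72.2 CPM in aP2-Cre replicates 1 to 4. The gap was small, from a lowest flox value of 78.6 to a highest aP2-Cre value of 77.1 CPM, and the fit gave a log2 fold change of -0.15, SE 0.11, edgeR adjusted p = 0.91. The lowest fitted value of the subunit belonged to Mrpl23, a protein of the tunnel exit, at 24.6 ± 7.51 CPM in the flox and 18.3 ± 4.83 CPM in the aP2-Cre libraries (SD, n = 4 each), with a log2 fold change of -0.42, SE 0.26, edgeR adjusted p = 0.896. Its flox replicate 3 was at 13.8 CPM, inside the aP2-Cre range, and Mrpl23 shares 510 words of 31 bases with the pseudogene Mrpl23-ps1, so the division of its reads is uncertain. The other frequently counted genes gave no clear difference: Mrpl30 was at 109 ± 12.3 CPM in the flox and 108 ± 6.84 CPM in the aP2-Cre libraries (SD, n = 4 each), a log2 fold change of -0.02, and Mrpl20, with a bacterial counterpart, at 95.5 ± 10.5 CPM in the flox and 81.7 ± 4.98 CPM in the aP2-Cre libraries (SD, n = 4 each), a log2 fold change of -0.23 with an edgeR adjusted p of 0.816.

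The highest values of the large subunit were those of Mrpl19, Mrpl21 and Mrpl34, which all have bacterial counterparts. Mrpl19 was at 29.5, 38.6, 28.5 and 25.4 CPM in flox replicates 1 to 4 and 50.4, 34.4, 31.5 and 38.7 CPM in aP2-Cre replicates 1 to 4. Flox replicate 2 lay above 2 of the aP2-Cre libraries, so the groups overlapped (log2 fold change of 0.33, SE 0.19, edgeR adjusted p = 0.851). Mrpl21 was at 38.1 ± 4.46 CPM in the flox and 44.0 ± 4.3 CPM in the aP2-Cre libraries (SD, n = 4 each), a log2 fold change of 0.21. Mrpl34 was at 34.8 ± 6.36 CPM in the flox and 40.7 ± 5.18 CPM in the aP2-Cre libraries (SD, n = 4 each), a log2 fold change of 0.21. Both groups overlapped in Mrpl21 and Mrpl34 as well, with edgeR adjusted p-values of 0.91 and 0.922.

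Among small subunit genes, 23 of 29 were lower in the aP2-Cre libraries, and their median was -0.134 on the log2 scale. At an unadjusted p under 0.05, 2 (6.90%) were lower and 0 higher, near the 6.39% of all genes in either direction (2.87% as lower). In 1 (3.45%), also lower, the groups had no overlap, against 4.2% of all genes in either direction (1.73% as lower). Mrps30 (ENSMUSG00000021731, chromosome 13, 118378381 to 118387252) had the smallest p-value of all members, at 39.9, 41.9, 43.6 and 41.2 CPM in flox replicates 1 to 4 and 31.8, 27.97, 26.9 and 33.5 CPM in aP2-Cre replicates 1 to 4. The flox libraries lay close together and all were above the aP2-Cre libraries. Its means were 41.7 ± 1.56 CPM in the flox and 30.0 ± 3.12 CPM in the aP2-Cre libraries (SD, n = 4 each), with a log2 fold change of -0.47, SE 0.14, edgeR adjusted p = 0.473 and an unadjusted p of 0.00534. Despite its symbol, the Mrps30 protein sits in the large subunit of the mammalian mitochondrial ribosome, as does that of Mrps18a.

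Mrps28 (ENSMUSG00000040269, chromosome 3, 8802146 to 8923918), which encodes a protein related to bacterial S1, was at 37.1, 27.8, 28.5 and 24.1 CPM in flox replicates 1 to 4 and 23.1, 25.2, 21.9 and 19.8 CPM in aP2-Cre replicates 1 to 4. Flox replicate 1 was the highest library, and aP2-Cre replicate 2 lay above flox replicate 4. The means were 29.4 ± 5.5 CPM in the flox and 22.5 ± 2.24 CPM in the aP2-Cre libraries (SD, n = 4 each), with a log2 fold change of -0.40, SE 0.18, edgeR adjusted p = 0.764 and an unadjusted p of 0.0441. Mrps22, a protein found only in mitochondria, was at 20.5, 24.5, 20.03 and 24.7 CPM in flox replicates 1 to 4 and 20.4, 10.8, 9.6 and 27.3 CPM in aP2-Cre replicates 1 to 4. Its aP2-Cre replicates 2 and 3 were below all other libraries and replicate 4 above them, and the fit gave a log2 fold change of -0.38, SE 0.30, edgeR adjusted p = 0.921.

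The 4 most counted small subunit genes were Mrps6, Mrps14, Mrps15 and Mrps26. Mrps15, with a bacterial counterpart, was at 82.7 ± 3.9 CPM in the flox and 72.8 ± 6.19 CPM in the aP2-Cre libraries (SD, n = 4 each), a log2 fold change of -0.19 with an edgeR adjusted p of 0.885. Mrps14 was at 83.1 ± 9.29 CPM in the flox and 81.4 ± 4.78 CPM in the aP2-Cre libraries (SD, n = 4 each), a log2 fold change of -0.03. Mrps26 was at 86.2 ± 4.66 CPM in the flox and 78.6 ± 16.9 CPM in the aP2-Cre libraries (SD, n = 4 each), a log2 fold change of -0.14. Mrps6 was at 93.9 ± 20.3 CPM in the flox and 93.2 ± 27.4 CPM in the aP2-Cre libraries (SD, n = 4 each) and gave a log2 fold change of -0.01 with libraries from 74.9 to 133 CPM, and the direction of Mrps6, Mrps14 and Mrpl30 changed with library totals or a left-out library. Mrps6 shares its locus and 129 words of 31 bases with Slc5a3, which overlaps it on the same strand. The highest values of the subunit were 0.17 for Mrps2, 0.15 for Mrps18c and 0.09 for Mrps9, with edgeR adjusted p-values from 0.941 to 0.969, and Mrps9 changed sign when 1 library was left out.

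**Figure D3:**
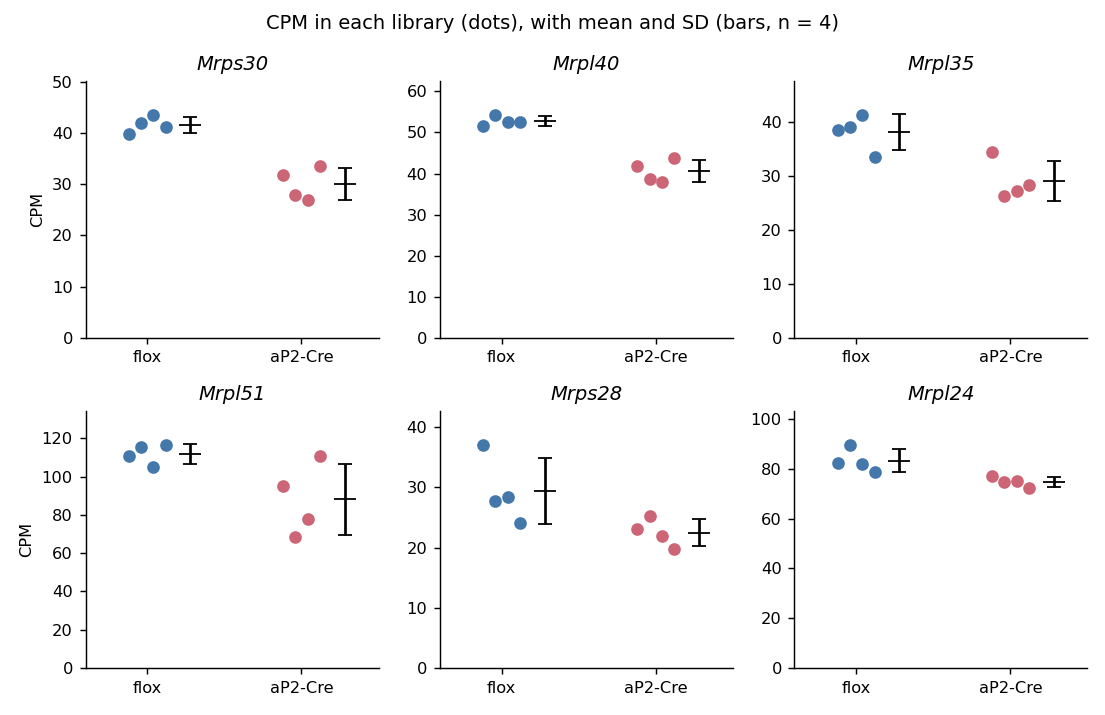
CPM (y axis, from 0) in each of the 4 flox and 4 aP2-Cre libraries for the 5 members with an unadjusted p under 0.05 and for Mrpl24, with the mean and SD beside the dots. In Mrps30, Mrpl40 and Mrpl24 the groups do not overlap, and in Mrpl35, Mrpl51 and Mrps28 at least 1 aP2-Cre library lies at the level of a flox library.

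The count of members near the threshold changed when single libraries were left out. Instead of 5 lower members at an unadjusted p under 0.05 there were 3 without flox replicate 2, aP2-Cre replicate 2 or aP2-Cre replicate 3, and 8 without aP2-Cre replicate 4. Over all genes the count at that p, 797 in the main fit, ran from 645 to 920 with 1 library left out. The count of lower members without overlap went from 3 to 10 without flox replicate 4, the smallest library, and was 5 or 6 without flox replicate 1, flox replicate 3, or aP2-Cre replicate 1, 2 or 4. Fewer libraries make non-overlap easier to reach for any gene. The share over all genes in these settings is not given here, so this rise is not read as a trait of the members. Mrps30 stayed between -0.53 and -0.40 and Mrpl40 between -0.42 and -0.31 on the log2 scale in every setting run, with edgeR, DESeq2 or limma adjusted p-values from 0.305 to 0.862 and from 0.376 to 0.875.

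Large and small subunit genes were compared by library. Summed over the 49 genes, the large subunit was at 2371, 2294, 2296 and 2168 CPM in flox replicates 1 to 4 and 2178, 2123, 2058 and 2188 CPM in aP2-Cre replicates 1 to 4. The small subunit sums were 1383, 1324, 1353 and 1285 CPM in the flox and 1289, 1224, 1171 and 1251 CPM in the aP2-Cre libraries. In both subunits flox replicate 1 was the highest library, aP2-Cre replicate 3 the lowest, and flox replicate 4 lay among the aP2-Cre libraries. The means were 2282 ± 84.1 and 2137 ± 59.8 CPM for the large and 1336 ± 41.7 and 1234 ± 49.7 CPM for the small subunit (flox and aP2-Cre, SD, n = 4 each). These sums are descriptions without a test, and on library totals the log2 ratio of the means shrank from -0.095 to -0.028 for the large and from -0.115 to -0.048 for the small subunit.

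The balance of the subunits overlapped between the groups. The ratio of summed CPM, large over small, was 1.71 ± 0.0200 in the flox and 1.73 ± 0.0304 in the aP2-Cre libraries (SD, n = 4 each), with ranges of 1.69 to 1.73 and 1.69 to 1.76. The difference of the means was smaller than the SD of the aP2-Cre libraries but larger than that of the flox libraries. It does not depend on the scaling of libraries. Counting Mrps30 and Mrps18a with the large subunit and leaving out Mrps36, whose product is now assigned to the 2-oxoglutarate dehydrogenase complex, gave medians of -0.105 for the large and -0.120 for the small subunit. Among the 25 members that share no word of 31 bases with another gene of the table, a choice made after seeing the data, the median was -0.038 for 14 large and -0.186 for 11 small subunit genes. These groups go by symbol, and the 11 still hold Mrps30 (-0.47) and Mrps18a (-0.24). This gap therefore cannot be read as one between the subunits. No difference between the subunits was tested.

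The members' common level differed between libraries. For each library, the median over members of log2 CPM minus the gene's mean over all 8 libraries was 0.119, 0.040, 0.094 and -0.003 in flox replicates 1 to 4 and -0.002, -0.044, -0.094 and -0.038 in aP2-Cre replicates 1 to 4. In flox replicate 1, 65 of 78 members lay above their own mean, and in aP2-Cre replicate 3 22 did. The groups overlapped only between flox replicate 4 and aP2-Cre replicate 1. For the large subunit alone the lowest flox median was -0.004 and the highest aP2-Cre median -0.011, and for the small subunit both were 0.023. Summed macrophage markers were higher in every aP2-Cre than in every flox library, and the share of mitochondrially encoded RNA was lower in each. Adipocyte markers leaned the same way as the members, with 15 of 18 lower and a median of -0.143, which ran from -0.21 to -0.054 with each library left out, although their sums overlapped between the groups. The part of these markers and of that share in the members' lean was not tested.

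**Figure D4:**
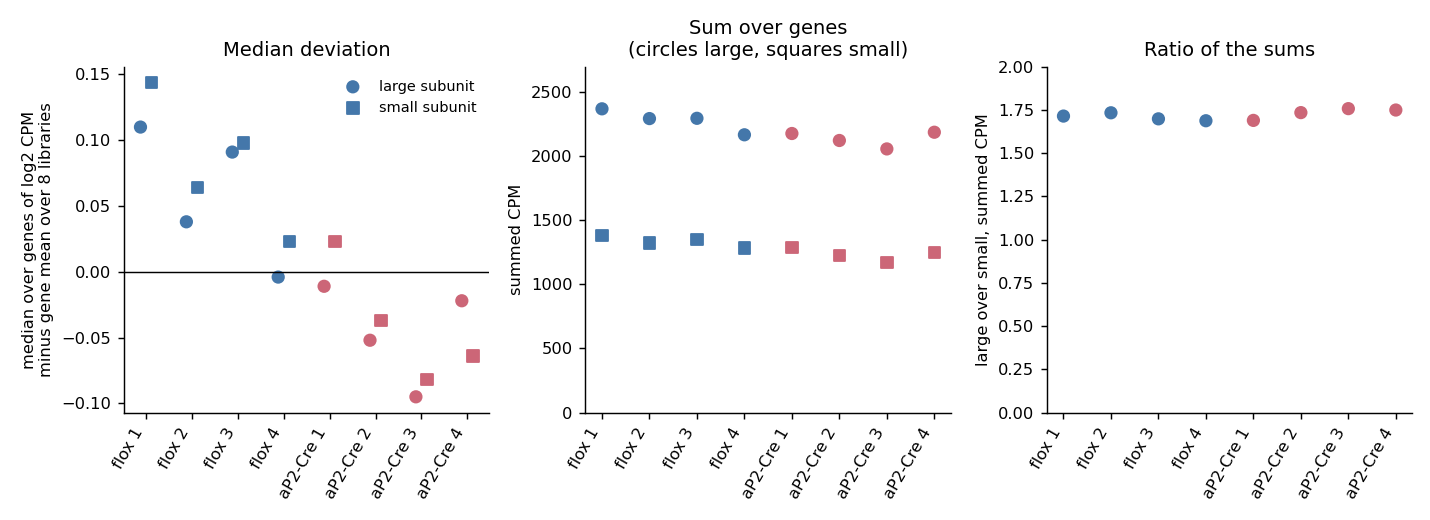
Left, median deviation of large (circles) and small (squares) subunit genes from the gene means in each library, in log2 units; middle, their summed CPM; right, the ratio of the sums. Blue marks flox and red aP2-Cre libraries. The ratio stays between 1.69 and 1.76 while the sums are highest in flox replicate 1 and lowest in aP2-Cre replicate 3.

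Members were lower on balance in each class of abundance. Divided by mean CPM into 3 classes of 26 genes, the least counted (8.68 to 34.6 CPM) was centred on a log2 fold change of -0.151, with 18 lower, the middle class (35.2 to 47.8 CPM) -0.047 with 16 lower, and the most counted (48.2 to 108 CPM) -0.139 with 23 lower. The same held with and without each promoter element. Members with the NRF1 letters had a median of -0.105 (9 of 13 lower) against -0.106 for the 56 without, those with the ETS letters -0.116 (9 of 12) against -0.106, and those with the YY1 letters -0.138 (8 of 8) against -0.102. No member has an annotated transcript with a run of 31 or more A, the longest being 28.

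Several members share their start region with another gene of mitochondria. In 15 members the annotated gene overlapped a neighbour head to head on the opposite strand, so that both starts lie in one stretch of DNA. Mrpl46 and Mrps11 form such a pair on chromosome 7, 1 gene for each subunit, overlapping by 413 bases: Mrpl46 was at 19.5 ± 1.78 against 16.7 ± 4.04 CPM (SD, n = 4 each; log2 fold change -0.22) and Mrps11 at 21.7 ± 1.7 against 19.8 ± 3.7 CPM (SD, n = 4 each; log2 fold change -0.13). Mrpl36 overlaps Ndufs6, a complex I subunit gene, and was at 40.1 ± 1.29 against 37.0 ± 3.07 CPM (SD, n = 4 each; log2 fold change -0.11) beside 85.2 ± 15.1 against 74.5 ± 8.51 CPM (SD, n = 4 each; log2 fold change -0.20) for Ndufs6. Both genes of these pairs had values below 0.
In other pairs the signs differed. Mrpl47 was at 19.1 ± 3.21 against 21.2 ± 3.79 CPM (SD, n = 4 each; log2 fold change 0.15) while Ndufb5, another complex I subunit gene, was at 133 ± 11.5 against 116 ± 5.85 CPM (SD, n = 4 each; log2 fold change -0.20). Mrpl43 was at 52.7 ± 2.57 against 45.6 ± 4.56 CPM (SD, n = 4 each; log2 fold change -0.21) and Twnk, the mitochondrial DNA helicase gene, at 9.04 ± 2.23 against 9.91 ± 4.65 CPM (SD, n = 4 each; log2 fold change 0.13). These pairs were picked for their mitochondrial partners. The smallest edgeR adjusted p among all head-to-head neighbours was 0.708, for Oaz3, an antizyme gene beside Mrpl9, at 10.8 ± 6.87 against 5.21 ± 1.57 CPM (SD, n = 4 each; log2 fold change -1.09), where Mrpl9 had a log2 fold change of -0.23. Within the mitochondrial pairs it was 0.83, for Ndufb5. The neighbours Mtbp, Eme1 and B430218F22Rik, the last beside Mrps30, were not among the genes tested, and whether reads were counted by strand is not given in the sources used here.

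The other genes of mitochondrial translation gave no call either. Mitochondrial ribosomal proteins with other symbols (Dap3, Ptcd3, Chchd1, Aurkaip1 and Gadd45gip1) had 4 of 5 values above 0, with a median of 0.050 on the log2 scale. The exception was Dap3, a small subunit GTP-binding protein, at 58.4 ± 8.59 CPM in the flox and 49.9 ± 5.63 CPM in the aP2-Cre libraries (SD, n = 4 each), a log2 fold change of -0.22. Assembly factors had a median of -0.072 with 17 of 26 tested genes lower. Over all genes 6.39% had an edgeR unadjusted p under 0.05, and here 1 (3.85%) did. That was Fastkd2, which binds the RNA of the large subunit, at 10.1, 11.2, 11.6 and 17.7 CPM in flox replicates 1 to 4 and 8.17, 6.79, 8.45 and 8.78 CPM in aP2-Cre replicates 1 to 4. No aP2-Cre library reached a flox library (log2 fold change of -0.62, SE 0.29, edgeR adjusted p = 0.775). Rpusd3, an RNA pseudouridine synthase gene, was the other assembly gene without overlap, at 9.63 ± 0.647 CPM in the flox and 6.74 ± 1.3 CPM in the aP2-Cre libraries (SD, n = 4 each), and is named after its values were seen. Assembly genes without overlap were 7.69% of those tested, against 4.2% of all genes in either direction and 1.73% as lower.

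Translation factors had a median of -0.011 with 7 of 14 lower, and the smallest p belonged to Guf1, an elongation factor (log2 fold change of -0.30, SE 0.16, edgeR adjusted p = 0.824). Aminoacyl-tRNA synthetases of mitochondria had a median of -0.006 with 8 of 16 lower. Lars2, the leucyl enzyme, was at 516, 435, 432 and 590.1 CPM in flox replicates 1 to 4 and 737, 689, 633 and 486 CPM in aP2-Cre replicates 1 to 4, where aP2-Cre replicate 4 lay below flox replicates 1 and 4. The fit gave it a log2 fold change of 0.37, SE 0.15, edgeR adjusted p = 0.695 and an unadjusted p of 0.0249. Lars2 stood far above the other synthetases. The next was Iars2, at 66.8 ± 6.54 CPM in the flox and 67.1 ± 13.1 CPM in the aP2-Cre libraries (SD, n = 4 each). Whether all reads counted for Lars2 come from its mRNA was not tested. Genes of mitochondrial DNA transcription and copying had a median of -0.049 with 7 of 12 lower, the smallest p being that of the RNA polymerase gene Polrmt (log2 fold change of -0.58, SE 0.30, edgeR adjusted p = 0.816). Regulators of mitochondrial biogenesis had a median of -0.066 with 8 of 12 lower, the smallest p being that of the coactivator gene Ppargc1b (log2 fold change of -0.38, SE 0.24, edgeR adjusted p = 0.907). None of these 6 lists held a gene with an adjusted p under 0.05. The sign of the median changed with library totals for translation factors, synthetases, mitochondrial DNA genes and regulators, and with a left-out library for the first 3 of these and for the ribosomal proteins with other symbols.

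The RNAs that the mitochondrial ribosome translates had the lowest median of these lists. Of the 13 mitochondrially encoded protein genes 11 were lower, with a median log2 fold change of -0.269. At an unadjusted p under 0.05 by edgeR, 7 (53.8%) were lower, against 2.87% of all genes. In 6 of them (46.2% of the list) the groups did not overlap, against 1.73% of all genes as lower. By edgeR 0 had an adjusted p under 0.05, where 0.168% of all genes did. The smallest p was that of mt-Co2, subunit 2 of cytochrome oxidase, at 15802, 14661, 18641 and 13902 CPM in flox replicates 1 to 4 and 12141, 10887, 10939 and 10356 CPM in aP2-Cre replicates 1 to 4. Each aP2-Cre library lay below each flox library (log2 fold change of -0.51, SE 0.12, edgeR adjusted p = 0.251). The others were mt-Atp6 (-0.48), mt-Co3 (-0.42), mt-Nd1 (-0.39), mt-Cytb (-0.36), mt-Nd2 (-0.31) and mt-Nd6 (-0.27; log2 fold changes), of which mt-Nd6 overlapped. These transcripts come from the mitochondrial genome as long precursors, so they are not independent of each other, and their median was further from 0 than that of either ribosomal subunit. This difference was not tested.

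**Figure D5:**
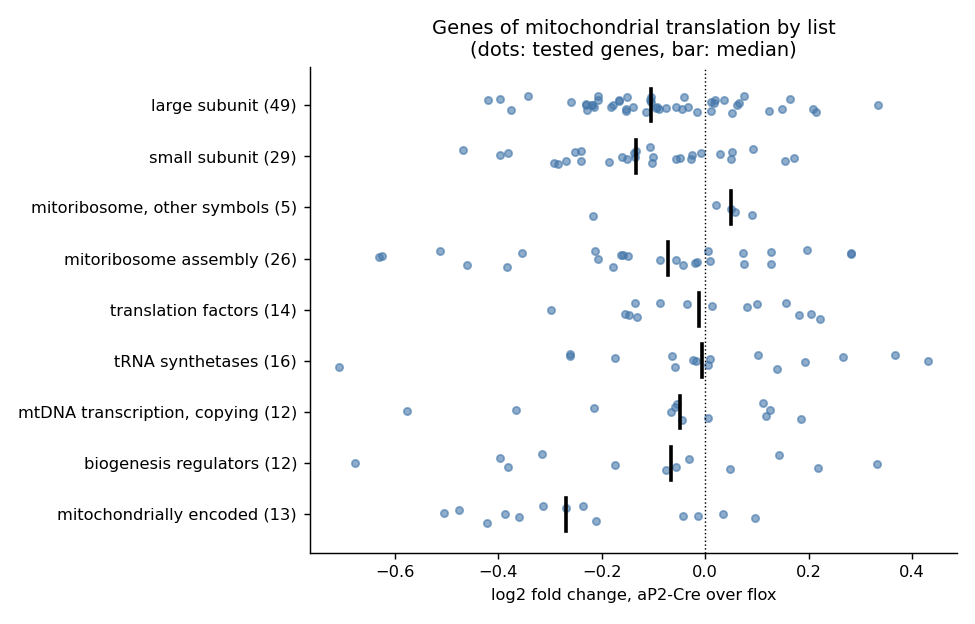
Log2 fold change (x axis, aP2-Cre over flox) of each tested gene in the lists of mitochondrial translation (y axis, number tested in brackets), with the list median as a bar. The medians run from -0.269 for mitochondrially encoded genes to 0.050 for ribosomal proteins with other symbols, with -0.105 and -0.134 for the subunits.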

How the data were processed

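Gene expression was profiled in 8 libraries, 4 per genotype. Per the labels' protocols, RNA was primed with oligo-dT, tagmented with Tn5, amplified by 10 cycles of PCR and read with 51 bases of insert (BRB-seq, a 3′-end method). The authors deposited estimated counts per gene without normalization; per the submitters' processing notes Salmon and GRCm38 were used, and the annotation, strand setting and use of molecular identifiers are not given in the sources used here. Of the values above 0, 59.6% were whole. The design assumed counts, and the estimated counts were rounded to whole numbers.

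Identifiers were matched without version to GENCODE M21 (34652 of 34866; coordinates are from that GRCm38 annotation), and promoter windows to RefSeq by symbol. edgeR 4.0.16 in R 4.3.3 (robust quasi-likelihood, TMM, filterByExpr, genotype as the only term) was fitted on the whole table and tested on simulated data first; limma 3.58.1 and DESeq2 1.42.0 served as alternatives. Intervals of 95% come from that fit. Library totals of 1538427 to 3053565 put the floor of 3 counts at 0.982 to 1.95 CPM, which covers counting error only. Replicates differed beyond sampling noise (chi-square per degree of freedom 4.48 to 9.40). The members and gene lists were chosen with earlier results of these data known. Named members are those with an unadjusted p under 0.05 or no overlap, the 3 highest and 3 lowest fold changes and the 4 most counted of each subunit, and in other lists genes with an unadjusted p under 0.05 or else the smallest p. The neighbours of members and Mrps27 were named after their values were seen. Alternatives were other scaling factors, filters and tools, the replicate number as a block, each library left out, other definitions of subunits and members, and, added later, library totals and members without shared words of 31 bases.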

Additional observations from a re-analysis of the deposited data

How the results depend on the processing

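No member passed an adjusted p of 0.05 under any setting run, and the members' medians kept their sign in all of them. With library totals, chosen after seeing the data, the medians were -0.037 for all members, -0.034 for the large and -0.06 for the small subunit, and 3 members were lower at an unadjusted p under 0.05. Members without shared words, also chosen later, had medians of -0.038 (large) and -0.186 (small), by symbol and with Mrps30 and Mrps18a counted as small. Library totals took the log2 ratio of summed CPM to -0.028 (large) and -0.048 (small), since the TMM factors were 0.941 to 1.03 in the flox and 0.985 to 1.06 in the aP2-Cre libraries. The count of all genes past the threshold, 21, became 58 without a filter, 54 with DESeq2, 4 to 43 with 1 library left out (4 without flox replicate 2, 43 without flox replicate 4), and genes with an unadjusted p under 0.05 went from 797 to 1294 without a filter, where more genes are tested. With 1 library left out, 3 to 8 members had an unadjusted p under 0.05, 3 to 8 as lower, beside 645 to 920 of all genes. Then 4 to 10 members had no overlap, 3 to 10 as lower, and non-overlap is easier to reach with fewer libraries. Summed CPM without the most counted member of each subunit, and wider or structural member lists, stayed within the spread between libraries. The non-overlap counts were not run for limma-voom or the block, which share the main scaling.

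A replicate block in the fit left 6 genes past the threshold. Deviations of same-numbered libraries correlated at 0.25, -0.062, -0.006 and -0.241. The labels do not say whether same-numbered libraries share more than the number, and these values without a reference cannot settle it.

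Signs near 0 were unstable. With library totals the medians of translation factors (0.054), tRNA synthetases (0.06), mitochondrial DNA genes (0.02) and biogenesis regulators (0.008) reversed, as did Mrpl30 (0.055), Mrps6 (0.059) and Mrps14 (0.04); tRNA synthetases reversed with limma-voom (0.051). With 1 library left out, ranges crossing 0 were -0.028 to 0.09 for ribosomal proteins with other symbols, -0.106 to 0.063 for translation factors, -0.06 to 0.054 for synthetases, -0.095 to 0.038 for mitochondrial DNA genes, -0.051 to 0.218 for endothelial, -0.004 to 0.112 for stromal and -0.318 to 0.224 for mesothelial markers, -0.084 to 0.03 for Mrpl30, -0.234 to 0.135 for Mrps6, -0.052 to 0.211 for Mrps9 and -0.084 to 0.041 for Mrps14. The cause was not tested. At 8 to 409 counts a library, the 95% intervals of 58 of 78 members (74.4%) lay within 1.5-fold, against 43.9% of all genes. The part of depth in the width of these intervals was not tested.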
